A study of Homo sapiens with 24 samples.

Results

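The genes described here are 10 members of the Notch pathway: the ligands JAG1, JAG2 and DLL1, the receptors NOTCH1, NOTCH2 and NOTCH3, and the target genes HES1, HEY1, HEYL and NRARP. They were chosen by name as core ligands, receptors and direct targets of the pathway, with no measured value in the rule, and 15 probes of the arrays carry a transcript accession of one of them, out of 31204 named genes and 58201 probes. Their RNA was measured in PLC/PRF/5 and SNU-449, established human hepatocellular carcinoma (HCC) cell lines. After a night without serum, each line was left untreated, or received for 16 h TGFβ1 at 1 ng/mL, galunisertib at 10 µM (LY2157299, an inhibitor of the kinase of the type I TGFβ receptor), or both agents, and each of the 8 groups has 3 independent cultures. The study asked which genes galunisertib changes in each line and whether lines of differing phenotype answer alike. No receptor, ligand or target gene of the Notch pathway was altered on purpose in any group, and each line stands for 1 tumour.

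Notch signalling passes between neighbouring cells. A ligand on the surface of one cell, such as Jagged1 (JAG1), binds a Notch receptor on the next, which allows the proteases ADAM10 and γ-secretase to release the intracellular part of the receptor, and this fragment enters the nucleus and joins the DNA-binding protein RBPJ to switch on target genes. HES1, HEY1 and HEYL encode transcriptional repressors of the basic helix-loop-helix class, and NRARP encodes an ankyrin-repeat protein that limits the signal. In the liver the pathway is best known for directing progenitor cells towards bile duct fate, and loss of JAG1 causes too few bile ducts. TGFβ signals through SMAD proteins, and JAG1 and HEY1 are known in several epithelial cells as genes that TGFβ induces.

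The windows of 250 bases just before the transcription start of JAG1, HES1 and HEYL are shown because these members include the ligand with the largest change and the targets whose promoters carry the letters that RBPJ reads. Sequences are those of RefSeq on GRCh38.p14, from a table with an entry for 8 of the 10 members (not DLL1 or HEY1), and capitals mark TGGGAA, the core of the RBPJ binding sequence, on either strand (TTCCCA in the other orientation). JAG1 lies at chr20:10674000-10674249 on the minus strand, HES1 at chr3:194135898-194136147 on the plus strand and HEYL at chr1:39639644-39639893 on the minus strand.
JAG1: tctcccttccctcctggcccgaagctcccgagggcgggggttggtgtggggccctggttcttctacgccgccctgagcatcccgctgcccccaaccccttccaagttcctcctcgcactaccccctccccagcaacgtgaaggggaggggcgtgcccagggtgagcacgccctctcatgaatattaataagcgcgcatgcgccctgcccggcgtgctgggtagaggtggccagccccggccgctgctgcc
HES1: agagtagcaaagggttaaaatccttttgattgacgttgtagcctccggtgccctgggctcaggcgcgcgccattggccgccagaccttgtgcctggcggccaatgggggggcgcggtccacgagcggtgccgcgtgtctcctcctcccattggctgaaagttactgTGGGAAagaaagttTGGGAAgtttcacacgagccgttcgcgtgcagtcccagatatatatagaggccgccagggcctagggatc
HEYL: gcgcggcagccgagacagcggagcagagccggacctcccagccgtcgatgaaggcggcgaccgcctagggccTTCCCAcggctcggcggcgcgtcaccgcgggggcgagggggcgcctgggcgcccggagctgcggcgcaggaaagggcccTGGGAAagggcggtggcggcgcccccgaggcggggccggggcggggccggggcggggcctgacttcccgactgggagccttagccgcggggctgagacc
The HES1 window held 2 matches, whose first bases lay 84 and 70 bases before the start, both on the strand of the gene. The HEYL window also held 2, at 178 and 99 bases before the start, in opposite orientations. None of the other 6 windows, which belong to JAG1, JAG2, NOTCH1, NOTCH2, NOTCH3 and NRARP, held these letters. TGGGAA was present in 20.8% of 35116 RefSeq windows of the same length, and 2.9% held it at least 2 times. CAGACA, a form of the SMAD binding element, occurred in none of the 8 windows and in 13.6% of all windows. Shorter or other forms of that element were not searched. A match is a description of these letters and not a measured binding site.

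Array signals are given as log2 levels relative to the 75th percentile of the processed signal on the same array, so that a level of 0 equals that percentile and a difference of 1 equals a doubling. That percentile lay between 145 and 262 intensity units over the 24 arrays, and 41.6 to 49.6% of the probes were well above background. Levels under 5.70% of the percentile, a log2 level of -4.13, were set to that floor. Differences were tested with limma over 16655 genes in PLC/PRF/5, 16084 in SNU-449 and 17900 over both lines, and a gene is called changed where its Benjamini-Hochberg adjusted p is below 0.05. Known TGFβ targets were read as a check of the labels: with TGFβ against control, PMEPA1 rose by 2.34, SKIL by 1.63 and SMAD7 by 0.80 on the log2 scale in PLC/PRF/5, and PMEPA1 rose by 1.39 and SMAD7 by 0.65 in SNU-449, where SKIL differed by 0.93 without passing the test (limma, adjusted p = 0.084). The PMEPA1 rise in PLC/PRF/5 started from controls at the floor, so the floor sets its size. Hepatocyte markers were clearly present in PLC/PRF/5, with SERPINA1 at 8.78 and ALB at 0.49 in the controls, and were near or below background in SNU-449, where SERPINA1 was at -3.00 and all 3 controls had ALB below the background limit. The 8 cultures with the same replicate number shared 1 of 3 slides, and TGFβ arrays always lay in the other row of the slide from arrays without it, so row and TGFβ cannot be told apart. In bulk RNA, fewer cells with a transcript and less of it per cell cannot be told apart.

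Without treatment, the lines differed in most members of the pathway. PLC/PRF/5 had the higher RNA level of NOTCH3, HEYL, HEY1 and JAG1, and SNU-449 the higher level of NOTCH2, NRARP and NOTCH1. HES1 was also called higher in PLC/PRF/5 and is in the counts below, but its levels lay at or next to the floor. It was above background on 1 of 3 PLC/PRF/5 controls and at the floor on all 3 SNU-449 controls. Of 9 members tested, 5 had their higher level in PLC/PRF/5 and 3 in SNU-449, while 33.9% of all 17900 genes were higher in PLC/PRF/5 and 34.6% lower (limma, adjusted p below 0.05), so that a difference between lines was common among all genes. The median difference was 0.41 for the members and 0.06 for all genes tested.

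**Figure D1:**
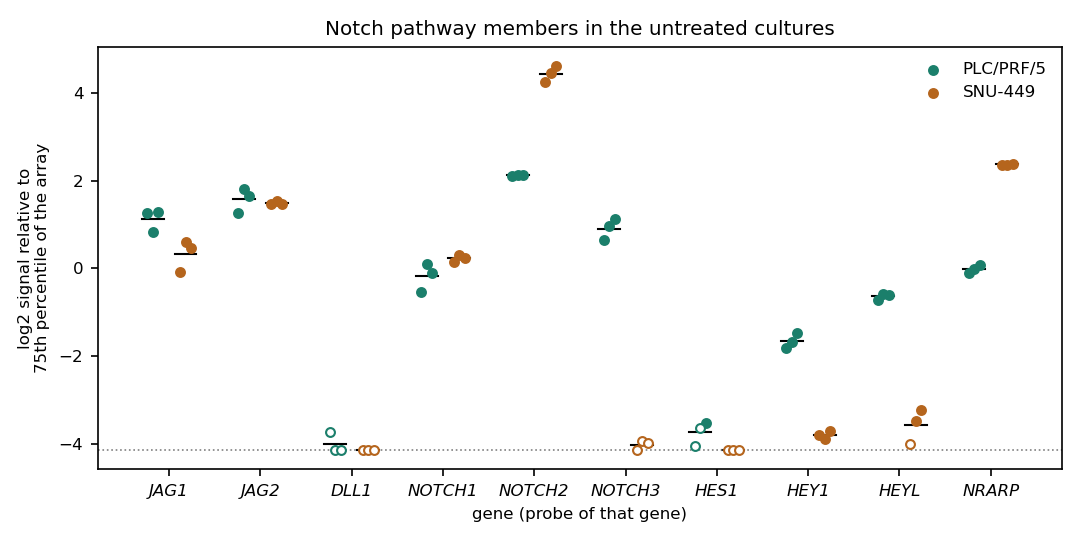
Log2 signal relative to the 75th percentile of the array (y axis) for the 10 members (x axis) in the untreated cultures of PLC/PRF/5 and SNU-449, with single cultures as points (open where not well above background), means of 3 cultures as bars and the floor at -4.13 as a dotted line; levels of different genes come from different probes and are not comparable. NOTCH3 stands between 0.64 and 1.12 in PLC/PRF/5 and below -3.9 in SNU-449, while NOTCH2 and NRARP are higher in SNU-449.

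Among the ligands, JAG1 was at 1.26, 0.84 and 1.28 in the PLC/PRF/5 controls and at -0.07, 0.60 and 0.47 in the SNU-449 controls. The groups did not overlap, with a difference of 0.79 ± 0.20 (SE) on the log2 scale (limma, adjusted p = 0.0015), and without replicate 1 the difference was 0.52 (adjusted p = 0.055). The call was also lost with median scaling (0.42, adjusted p = 0.14) and with the methods' two-sample test (adjusted p = 0.054). JAG2, the other Jagged ligand, averaged 1.57 ± 0.29 (SD, n = 3) in the PLC/PRF/5 controls and 1.49 ± 0.03 (SD, n = 3) in those of SNU-449, and the 95% interval of their difference ran from -0.30 to 0.46. The JAG2 probes did not give 1 answer: a further probe differed by -2.87 on the log2 scale, lower in PLC/PRF/5 (adjusted p = 5.9e-13 by limma over all probes), and the last probe differed by 0.19 (adjusted p = 0.59). DLL1, a Delta-type ligand, was well above background on 2 of the 24 arrays and in no whole group, so it could not be tested.

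Among the receptors, NOTCH3 showed the widest gap. Its level was 0.64, 0.97 and 1.12 in PLC/PRF/5 and below the background limit in all 3 SNU-449 controls. With the main processing, NOTCH3 RNA was thus at least 28.8-fold higher in PLC/PRF/5 (limma, adjusted p = 8.1e-17). On each SNU-449 control array this bound used the weakest signal that counted as above background. Where the probe's own signal was larger, that signal was used instead. Over the alternatives the log2 difference ran from 2.57 to 5.06 and stayed called, its lowest value being under that bound. NOTCH2 went the opposite way, at 2.11, 2.13 and 2.13 in PLC/PRF/5 and at 4.25, 4.45 and 4.61 in SNU-449. That is a 4.98-fold lower level in PLC/PRF/5 (adjusted p = 2.5e-07 by limma), with no overlap, and a second probe that targets a shorter NOTCH2 transcript gave a difference of -1.39 (adjusted p = 1.9e-08). Near-identical NOTCH2-related copies exist in the genome, so the NOTCH2 signal may include them. NOTCH1 differed less, by -0.41 ± 0.13 (SE) (limma, adjusted p = 0.011), and lost its call in 6 of the alternatives, among them without replicate 1 (adjusted p = 0.12) and without replicate 3 (adjusted p = 0.070), while its second probe, which was above background on 1 of the 3 PLC/PRF/5 control arrays, differed by -1.96.

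The target genes did not share a direction. HEYL was at -0.71, -0.58 and -0.60 in PLC/PRF/5 against -4.00, -3.48 and -3.22 in SNU-449, a difference of 2.94 ± 0.20 (SE) (limma, adjusted p = 9.6e-11). HEY1 was higher in PLC/PRF/5 by 2.13 ± 0.12 (SE) (limma, adjusted p = 2.9e-12). NRARP, by contrast, differed by -2.38 ± 0.17 (SE), at -0.10, -0.01 and 0.07 against 2.35, 2.36 and 2.38 (limma, adjusted p = 1.7e-10). These 3 targets separated the lines completely, HEYL and HEY1 in one direction and NRARP in the other. A second NRARP probe was at the floor on all 24 arrays. HES1, the classical target, was dim: it was above background on 8 of the 24 arrays, on 1 of the 3 PLC/PRF/5 controls and on none of the SNU-449 controls, and its difference of 0.41 ± 0.12 (SE) (limma, adjusted p = 0.0047) lies next to the floor and was not called without replicate 2 (adjusted p = 0.065) or replicate 3 (adjusted p = 0.15), nor with normexp (0.24, adjusted p = 0.099), median scaling (0.22, adjusted p = 0.28), quantile normalization (0.20, adjusted p = 0.22) or the methods' two-sample test (adjusted p = 0.092), while the authors' table gave 3.19 (adjusted p = 6.7e-06).

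TGFβ raised HEY1 in both lines and JAG1 in SNU-449, and HES1 was called higher in PLC/PRF/5 from levels near the floor. HEY1 and HES1 were the members called in PLC/PRF/5, 2 of 9 members tested, against 6.36% of all genes higher and 7.22% lower. In that line HES1 was above background on all 3 arrays only in the groups with TGFβ. It thus entered the fit through the groups where it was high, and its call adds no support to the count. In SNU-449 JAG1 and HEY1 rose, 2 of 7 members tested, against 5.63% of all genes higher and 4.71% lower. No member fell in either line. The median difference of the members was 0.14 in PLC/PRF/5 and 0.06 in SNU-449, beside -0.03 and 0.02 for all genes tested.

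JAG1 gave the largest difference among the members tested. In SNU-449 it was at -0.07, 0.60 and 0.47 without treatment and at 2.98 (lowest) to 3.11 (highest) over the 3 cultures with TGFβ, a 6.63-fold rise of 2.73 ± 0.23 (SE) on the log2 scale (limma, adjusted p = 5.4e-05). All TGFβ cultures were above all controls by more than 2 log2 units, and the call held in every alternative. In PLC/PRF/5 the levels were 1.26, 0.84 and 1.28 without treatment and 1.31, 1.46 and 1.25 with TGFβ. These groups overlapped, and the difference of 0.22 had a 95% interval from -0.10 to 0.54 (limma, adjusted p = 0.37). The TGFβ effect was larger in SNU-449 by 2.51 ± 0.28 (SE) (limma interaction term, adjusted p = 4.8e-06), a term in which 4.29% of all genes were called higher in SNU-449 and 4.33% lower.

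HEY1, which encodes a repressor induced in cells that receive a Notch signal, rose in both lines. Untreated PLC/PRF/5 cultures were at -1.82, -1.69 and -1.48 and those with TGFβ at -0.53, -0.31 and -0.47, a 2.34-fold rise of 1.23 ± 0.11 (SE) (limma, adjusted p = 8.2e-05). In SNU-449 it was at -3.78, -3.88 and -3.71 without treatment, little above the floor, and at -1.99, -2.18 and -1.91 with TGFβ, a 3.40-fold rise of 1.76 ± 0.12 (SE) (limma, adjusted p = 1.5e-05). Neither line had overlapping groups, and both calls held in every alternative in which HEY1 was tested. In SNU-449 that left out the filter asking for a signal above background on every array, and the size there ranged from 0.53 to 1.90 over the alternatives. The rise was greater in SNU-449 by 0.54 (95% interval 0.19 to 0.89), which did not pass the test (limma interaction, adjusted p = 0.051). It did pass in a fit over the compared groups only (adjusted p = 0.043), and with normexp its direction turned, to -0.20 (adjusted p = 0.46).

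**Figure D2:**
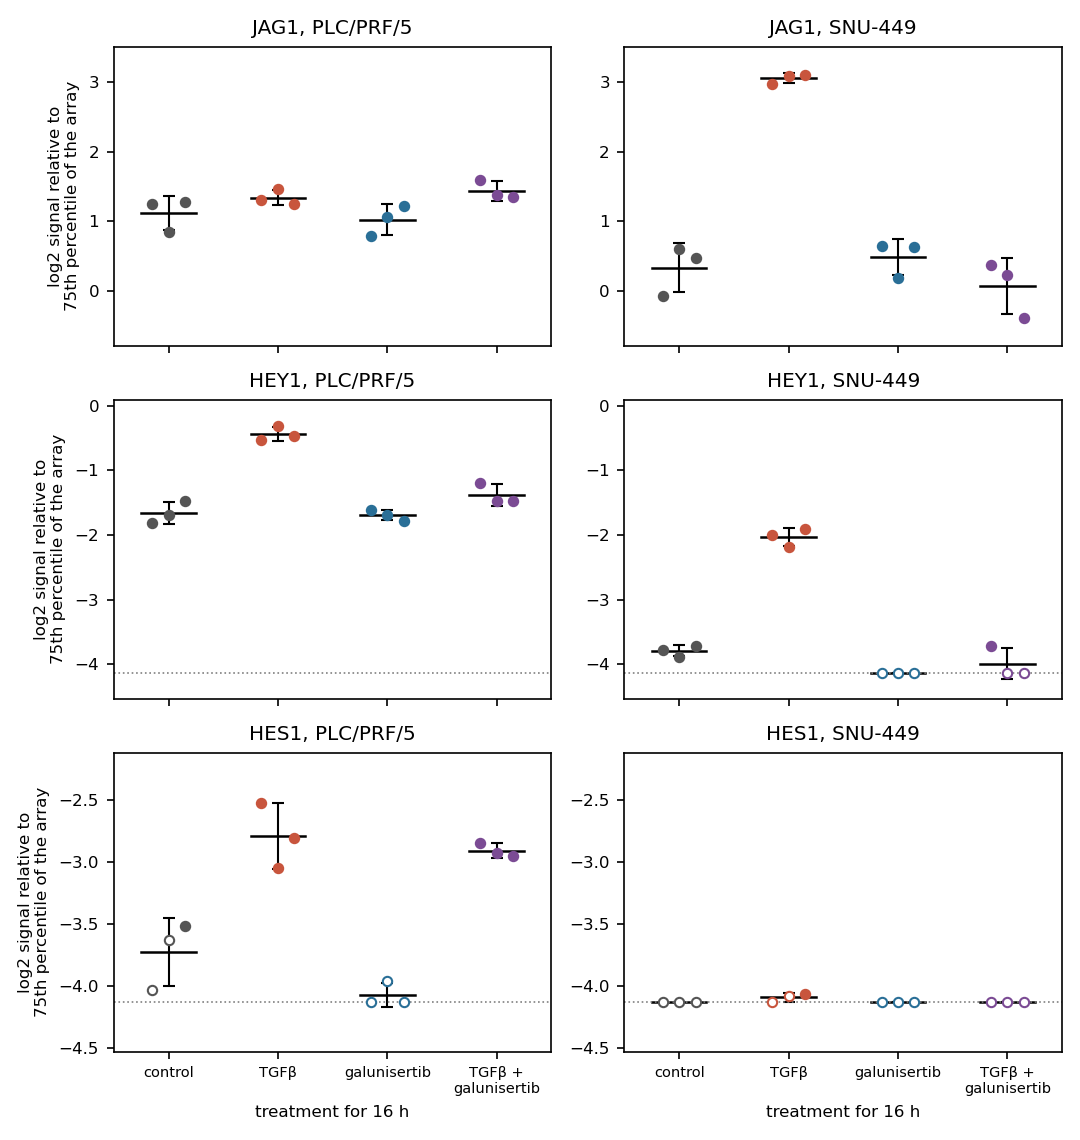
Log2 signal relative to the 75th percentile of the array (y axis) for JAG1, HEY1 and HES1 by treatment (x axis) in PLC/PRF/5 and SNU-449, with single cultures as points (open where not well above background), mean ± SD of 3 cultures as bars and whiskers, and the floor as a dotted line. JAG1 rises with TGFβ in SNU-449 from 0.33 to 3.06 and returns to 0.07 with galunisertib, HEY1 rises in both lines, and HES1 in PLC/PRF/5 overlaps between TGFβ and both agents.

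HES1 rose with TGFβ in PLC/PRF/5. Its levels were -4.04, -3.63 and -3.51 without treatment and -2.52, -3.05 and -2.80 with TGFβ, a difference of 0.94 ± 0.15 (SE) (limma, adjusted p = 0.0028). The groups did not overlap, but all these levels were low and only 1 of the 3 control arrays was above background. In SNU-449, HES1 was at the floor on all 3 control arrays and above background on 1 of the 3 TGFβ arrays, so it was not tested within that line. The TGFβ effect on HES1 differed between the lines by -0.90 ± 0.17 (SE) (limma interaction, adjusted p = 0.0013), a value that rests on SNU-449 levels set to the floor and that turned to 0.013 with a lower floor (adjusted p = 0.99) and to 1.87 in the authors' own table (adjusted p = 0.13). The rise in PLC/PRF/5 kept its direction in all alternatives and lost its call with normexp background correction (0.17, limma adjusted p = 0.46), with the authors' table (adjusted p = 0.095), with the methods' two-sample test (adjusted p = 0.082) and without replicate 3 (adjusted p = 0.054).

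The third target of this class, HEYL, was at -0.71, -0.58 and -0.60 in untreated PLC/PRF/5 and at -0.57, -0.48 and -0.52 with TGFβ, a small difference of 0.11 (limma, adjusted p = 0.48). In SNU-449 it was at -4.00, -3.48 and -3.22 without treatment and at -2.72, -2.74 and -2.66 with TGFβ. Those SNU-449 groups did not overlap, yet the difference of 0.86 ± 0.26 (SE) did not pass the test (limma, adjusted p = 0.067; 0.0053 where the spread was shared over all 24 arrays). NRARP differed by 0.12 in PLC/PRF/5 (95% interval -0.18 to 0.41) and by 0.00 in SNU-449 (95% interval -0.42 to 0.42).

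None of the receptors passed the test with TGFβ in either line. NOTCH2 in PLC/PRF/5 was at 2.11, 2.13 and 2.13 without treatment and at 2.68, 2.64 and 2.65 with TGFβ, so that the groups were tight and separate, yet the difference of 0.54 ± 0.31 (SE) gave an adjusted p of 0.30 in limma. The spread that limma pools over the line holds 1 galunisertib array at 0.61, beside 1.93 and 2.19 on the other galunisertib arrays. Without that replicate the adjusted p was 0.085. The methods' two-sample test, run without its random variance model, leaves the galunisertib groups out and gave an adjusted p of 0.0043. The second NOTCH2 probe, which had no such array, rose by 0.46 ± 0.12 (SE) (limma over all probes, adjusted p = 0.036). In SNU-449 NOTCH2 differed by -0.30 (95% interval -0.72 to 0.11; 0.03 without replicate 3, whose TGFβ array was at 3.64) and the second probe by -0.05. NOTCH1 differed by 0.10 in PLC/PRF/5 and by 0.06 in SNU-449, NOTCH3 by 0.14 in PLC/PRF/5, and JAG2 by 0.11 and -0.07 in the respective lines. The further JAG2 probe described above rose by 0.61 with TGFβ in PLC/PRF/5 (limma over all probes, adjusted p = 0.048) and fell by 0.80 when galunisertib was added (adjusted p = 0.0054), so that the JAG2 probes differ in response as well.

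**Figure D3:**
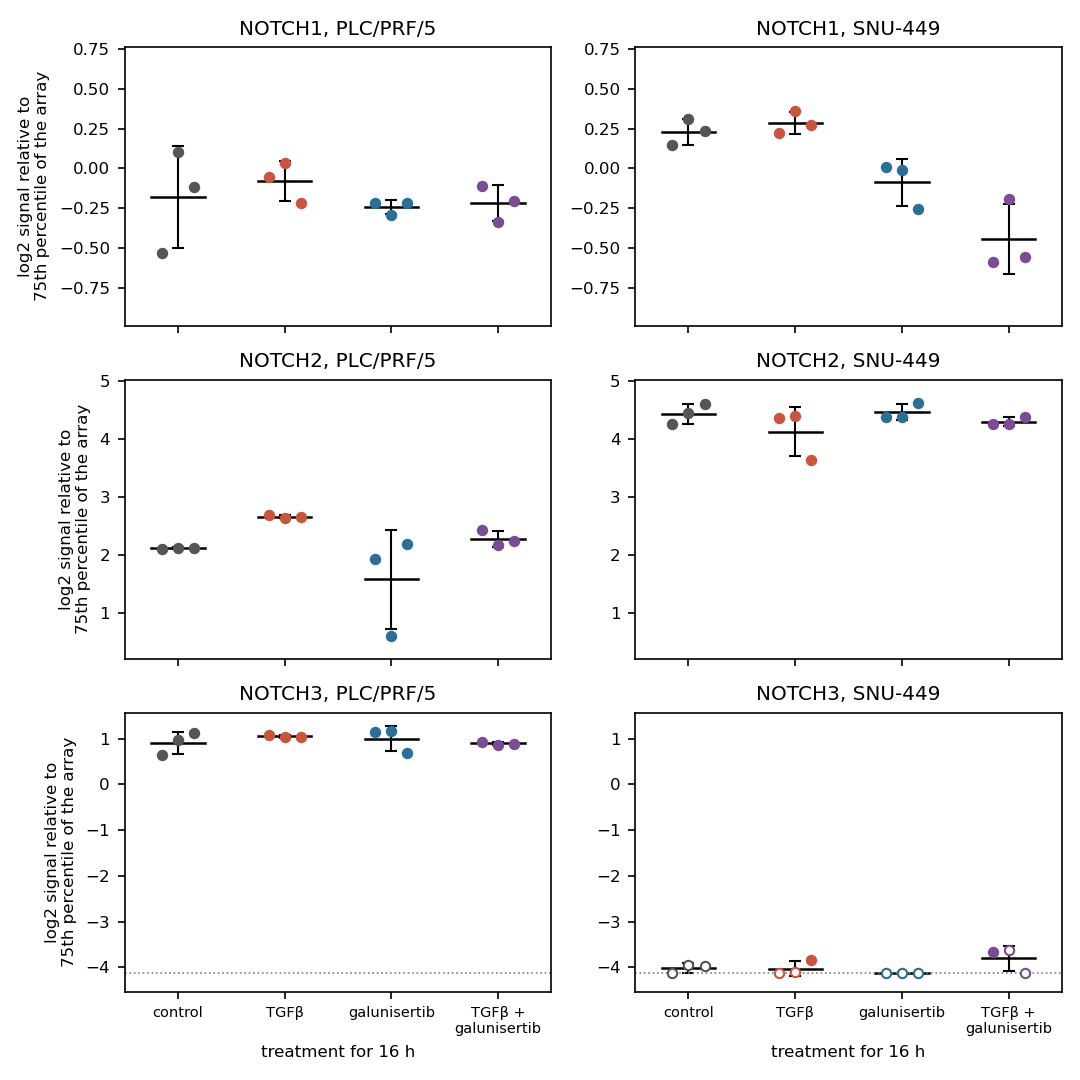
Log2 signal relative to the 75th percentile of the array (y axis) for the receptors NOTCH1, NOTCH2 and NOTCH3 by treatment (x axis) in PLC/PRF/5 and SNU-449, with points, bars, whiskers and dotted line as in the plot of JAG1, HEY1 and HES1. NOTCH1 in SNU-449 is lowest with both agents, between -0.58 and -0.19, and 1 galunisertib culture of PLC/PRF/5 stands apart for NOTCH2 at 0.61.

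Galunisertib alone changed no member in either line by limma, with 0 of 9 called in PLC/PRF/5 and 0 of 7 in SNU-449. Of all genes, 3.65% were higher and 1.73% lower in PLC/PRF/5, and 5.24% were higher and 2.05% lower in SNU-449. At an unadjusted p below 0.05, the differences were -0.35 for HES1 in PLC/PRF/5 and -0.31 and -0.34 for NOTCH1 and HEY1 in SNU-449. PMEPA1, SKIL and SMAD7 fell in SNU-449 with galunisertib alone, with log2 differences of -3.50, -2.62 and -1.90. Over the same arrays JAG1 was at 0.64, 0.18 and 0.63 beside -0.07, 0.60 and 0.47 in the controls, so the groups overlapped and the difference was 0.15 (95% interval -0.36 to 0.65). HEY1 was above background on all 3 SNU-449 controls and at the floor on all 3 galunisertib arrays, and its difference did not pass the test (limma, adjusted p = 0.12). With the floor lowered by 1 log2 unit that difference was -1.28 and was called (limma, adjusted p = 0.0063), and it was -1.93 in the authors' table (adjusted p = 0.022), so the floor sets its size. NRARP, at 2.04, 1.95 and 2.07, was below all its controls in SNU-449, with a difference of -0.35 (limma, adjusted p = 0.29). No member's galunisertib effect differed between the lines (interaction terms by limma, 0 of 9 called, and HEY1 at -1.25 with the lower floor, adjusted p = 0.0038; 3.43% of all genes higher in SNU-449 and 2.44% lower), and at an unadjusted p below 0.05 HES1 differed by 0.35.

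With galunisertib added to TGFβ, HEY1 fell in both lines and JAG1 fell in SNU-449. In SNU-449, JAG1, HEY1, HEYL and NOTCH1 were lower with both agents than with TGFβ alone, 4 of 7 members tested and none higher, against 9.59% of all genes higher and 7.32% lower. HEYL is in that count, but only with TGFβ was it above background on all 3 arrays of a SNU-449 group. It thus entered the fit through the group where it was highest, and its call adds no support to the count. The median difference of the members was -0.73 in that line and 0.01 for all genes tested. HEY1 was the 1 member called in PLC/PRF/5 out of 9 tested, against 25.9% of all genes higher and 13.3% lower, and the medians were -0.12 for the members and 0.06 for all genes.

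JAG1 in SNU-449 was at 0.36, 0.23 and -0.39 with both agents, far below the TGFβ cultures and overlapping the controls. The fall was 7.98-fold, by 3.00 ± 0.23 (SE) on the log2 scale (limma, adjusted p = 1.6e-05). In PLC/PRF/5, where the TGFβ difference had not passed the test, levels with both agents were 1.60, 1.37 and 1.34, a difference of 0.10 from TGFβ alone (95% interval -0.22 to 0.41).

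HEY1 fell in PLC/PRF/5 by 0.95 ± 0.11 (SE) (limma, adjusted p = 1.3e-04), to -1.19, -1.47 and -1.48. In SNU-449 it fell by 1.96 ± 0.12 (SE) (limma, adjusted p = 4.7e-06), to a level above background on 1 of 3 arrays. The groups did not overlap in either line. HEYL in SNU-449 was at -3.59, -3.00 and -4.13 with both agents, a difference from TGFβ of -0.87 ± 0.26 (SE) (limma, adjusted p = 0.047). That call was lost in 9 of 15 alternatives. With normexp the difference was -0.16 (limma, adjusted p = 0.28). The methods' two-sample test gave an adjusted p of 0.16. By limma, the call was also lost with no filter on dim probes (adjusted p = 0.13) and with the lower floor (adjusted p = 0.055). The same held for the percentile over probes above background on all arrays (adjusted p = 0.053). It was lost with the replicate as a block (adjusted p = 0.064) and without replicate 1, 2 or 3 (adjusted p = 0.19, 0.079 and 0.25).

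HES1 in PLC/PRF/5 did not pass the test. With both agents it was at -2.84, -2.93 and -2.96, within the range of the TGFβ cultures, and the difference from TGFβ alone was -0.12 (95% interval -0.45 to 0.22; limma, adjusted p = 0.59). Over the same arrays PMEPA1, SKIL and SMAD7 fell by 2.34, 2.06 and 1.54 on the log2 scale, PMEPA1 to the floor. Whether the responses of HES1 and HEY1 differ from each other was not tested.

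NOTCH1 in SNU-449 was at 0.22, 0.36 and 0.27 with TGFβ and at -0.58, -0.19 and -0.55 with both agents. The groups were separate and NOTCH1 fell by 0.73 ± 0.12 (SE) (limma, adjusted p = 0.0022), beside a difference of 0.06 between TGFβ and control, and without replicate 3 the adjusted p was 0.064. Its second probe fell by 0.73 as well (limma over all probes, adjusted p = 0.021), after a TGFβ difference from control of 0.55 ± 0.18 (SE) that did not pass the test (adjusted p = 0.090). In PLC/PRF/5 NOTCH1 differed by -0.14 (95% interval -0.45 to 0.17). NOTCH2 and NOTCH3 differed by -0.38 and -0.15 in PLC/PRF/5 with no overlap between groups and no call in limma, the methods' two-sample test calling both (adjusted p = 0.034 and 0.020), and the second NOTCH2 probe fell by 0.61 (limma over all probes, adjusted p = 0.0034). JAG2 in SNU-449 was at 1.19, 1.24 and 1.26 with both agents, under its TGFβ levels of 1.45, 1.45 and 1.37, without a call (limma, adjusted p = 0.076). It was called with the authors' table (adjusted p = 0.049), with no filter on dim probes (adjusted p = 0.0050) and with the methods' two-sample test (adjusted p = 0.036), while the further JAG2 probe differed in the opposite direction, by 0.30 ± 0.10 (SE) (limma over all probes, adjusted p = 0.066).

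**Figure D4:**
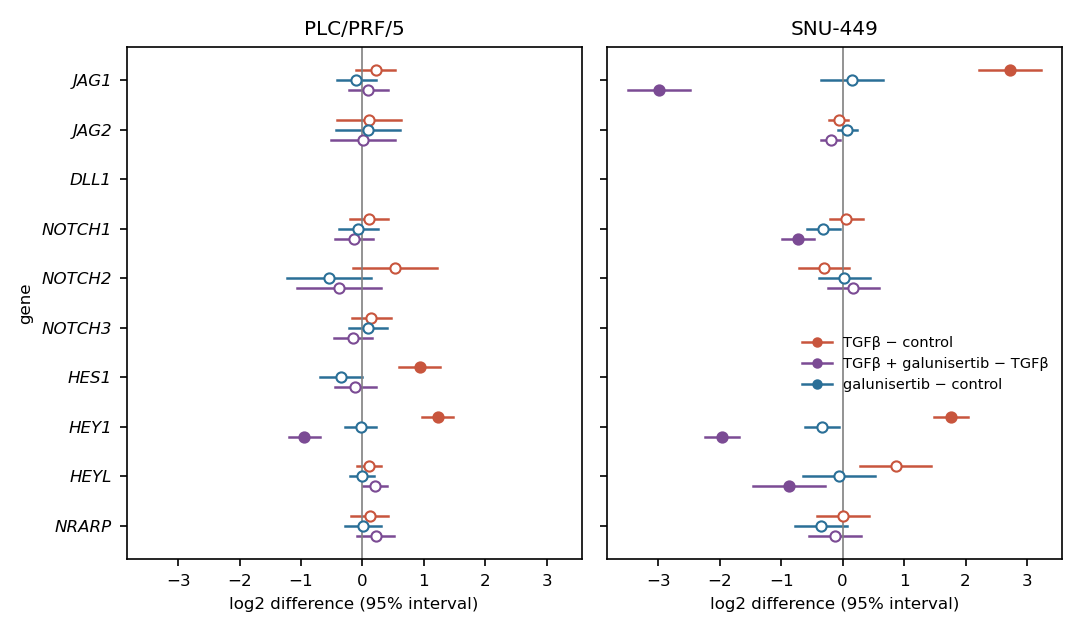
Log2 differences (x axis) with 95% intervals from limma for each member (y axis) in PLC/PRF/5 and SNU-449, for TGFβ minus control, galunisertib minus control and both agents minus TGFβ alone, with filled points where the adjusted p is below 0.05, open points elsewhere and no point where a gene was not tested. JAG1 in SNU-449, at 2.73 and -3.00, is the widest pair, and HEY1 shows the same order of signs in both lines.

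With galunisertib present, 2 members were called with TGFβ in PLC/PRF/5, as many as without it, and 1 in SNU-449. HES1 and HEYL were higher with both agents than with galunisertib alone in PLC/PRF/5, 2 of 9 members tested, beside 3.61% of all genes higher and 4.95% lower. HES1 is in that count although it entered the fit only through the groups with TGFβ. HES1 was above background on 0 of 3 galunisertib arrays and on 3 of 3 with both agents, a difference of at least 2.06-fold (limma, adjusted p = 0.0062; without replicate 2 or 3, 0.081 and 0.088; with the methods' two-sample test, 0.089). With normexp the log2 difference was 0.33, which is under that bound and was not called (limma, adjusted p = 0.13). HEYL rose from -0.68, -0.54 and -0.71 to -0.15, -0.43 and -0.38, by 0.32 ± 0.09 (SE) (limma, adjusted p = 0.049). This call was lost in 12 of 16 alternatives, among them without replicate 1, 2 or 3 (limma, adjusted p = 0.25, 0.19 and 0.18). In SNU-449 JAG2 was lower, 1 of 7 members tested, beside 0.902% of all genes higher and 0.957% lower. It fell from 1.57, 1.60 and 1.54 to 1.19, 1.24 and 1.26, by 0.34 ± 0.07 (SE) (limma, adjusted p = 0.037). The JAG2 call was lost in 11 of 16 alternatives, among them without replicate 1, 2 or 3 (limma, adjusted p = 0.29, 0.32 and 0.21). The other JAG2 probes differed by 0.14 and 0.03 without a call. JAG1 in SNU-449 differed by -0.42 (limma, adjusted p = 0.38), whereas PMEPA1, SKIL and SMAD7 stayed higher with both agents than with galunisertib alone in that line, by 2.77, 2.08 and 1.38.

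The wider pathway was read from lists of 6 other ligands and receptors, 7 other HES, HEY and target genes, 14 genes of receptor processing and sugar modification, and 20 genes of the nuclear complex and of turnover. With TGFβ in PLC/PRF/5, 0 genes of the first list were higher and 1 lower of 4 tested, 1 and 0 of 2 in the second, 3 and 0 of 14 in the third and 1 and 0 of 18 in the fourth, beside 6.36% of all genes higher and 7.22% lower. In SNU-449 these counts were 1 higher and 1 lower of 5, 0 and 0 of 2, 2 and 0 of 14, and 2 and 1 of 17, beside 5.63% and 4.71% of all genes. Galunisertib alone left 1 higher and 1 lower over the 4 lists in PLC/PRF/5, beside 3.65% of all genes higher and 1.73% lower, and 1 higher and 2 lower in SNU-449, beside 5.24% and 2.05%. For both agents against TGFβ in PLC/PRF/5, where 25.9% of all genes were higher and 13.3% lower, the lists had in the same order 1 higher and 0 lower of 4, 1 and 1 of 2, 4 and 4 of 14, and 1 and 4 of 18. In SNU-449, with 9.59% of all genes higher and 7.32% lower, they had 0 and 1 of 5, 0 and 1 of 2, 2 and 2 of 14, and 1 and 2 of 17. Between the untreated lines, 2 genes of the first list were higher in PLC/PRF/5 and 2 lower of 5, 1 and 1 of 2 in the second, 6 and 5 of 14 in the third and 8 and 9 of 18 in the fourth, beside 33.9% of all genes higher and 34.6% lower.

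FURIN, the protease that makes the first cut in maturing Notch receptors and that acts on many other proproteins including that of TGFβ, rose by 1.77 ± 0.09 (SE) with TGFβ in PLC/PRF/5 and by 1.99 ± 0.14 (SE) in SNU-449 (limma, adjusted p = 1.9e-06 and 1.5e-05). Both agents against TGFβ alone gave differences of -2.27 and -2.25, and galunisertib alone a difference of -0.74 in SNU-449 (limma, adjusted p = 0.012). Like HEY1, FURIN was called in the same directions in both lines. DNER, a non-canonical Notch ligand, was at the floor on all PLC/PRF/5 arrays and rose by 1.90 ± 0.22 (SE) with TGFβ in SNU-449 (limma, adjusted p = 4.2e-04), to fall by 1.95 with galunisertib added. DLK2, another non-canonical ligand, fell by 0.82 with TGFβ in SNU-449, and differed by -0.92 with both agents against galunisertib.

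MFNG, a Fringe glycosyltransferase that modifies the receptors, rose by 0.69 with TGFβ in PLC/PRF/5 and fell by 0.86 when galunisertib was added (limma, adjusted p = 0.0029 and 2.4e-04). In SNU-449 it went the opposite way, higher by 0.87 with both agents than with TGFβ alone (limma, adjusted p = 0.025), and the TGFβ effects of the lines differed by -1.34, SNU-449 minus PLC/PRF/5 (limma interaction, adjusted p = 0.0021). In PLC/PRF/5, HES6 and DLL3 were higher with both agents than with TGFβ, by 0.87 and 0.66, and APH1B, a subunit of γ-secretase, fell by 0.64. NOTCH4 was higher with galunisertib alone in that line by 0.68 (limma, adjusted p = 0.046).

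In SNU-449 the acetyltransferase KAT2B fell by 0.59 with TGFβ and was higher by 0.86 when galunisertib was added. Between the untreated lines, APH1B was higher in PLC/PRF/5 by 4.38 and FURIN by 2.77, while LFNG, another Fringe enzyme, and NUMBL, a relative of the Notch inhibitor NUMB, were higher in SNU-449, with differences of -4.26 and -2.95. The TGFβ effect was also larger in SNU-449 for LFNG, by 0.68, and the same difference between lines was -1.47 for MAML3, a co-activator of the Notch complex, and -0.75 for KAT2B (limma interaction terms). For the galunisertib effect it was 0.71 for KAT2B.

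The genes with a pattern most like a member were sought by Pearson correlation of log2 levels over the 12 arrays of a line, which share slides and treatments. For JAG1 in SNU-449 they were LARP6 (r = 0.987), GXYLT2 (r = 0.986) and lnc-GOLGA8J-3 (r = 0.984), out of 16084 genes. For JAG1 in PLC/PRF/5 they were ZNF468 (r = 0.931), SPOPL (r = 0.917) and EPCAM (r = 0.914), out of 16655 genes. HES1 in PLC/PRF/5 was most like NR2F6 (r = 0.977), HECA (r = 0.953) and VPS13A-AS1 (r = 0.950). NOTCH3 in PLC/PRF/5, whose levels changed little, had lower values for its nearest genes, KCTD20 (r = 0.832), lnc-NLRP3-1 (r = 0.826) and PGAM2 (r = 0.824).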

How the data were processed

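RNA of 24 cultures was hybridised to one-colour Agilent SurePrint G3 arrays, 8 to each of 3 slides, with the replicate number as the slide. The authors deposited the output of Agilent Feature Extraction 10.7.3.1 for each array, whose processed signal is a background-subtracted intensity on a linear scale with no scaling between arrays, and a GeneSpring table of log2 values centred per probe. Differences between arrays in that log2 table followed those used here (r = 0.999, slope 1.00) across the 19258 probes well above background on all 24 arrays. DLL1, HES1, HEY1, HEYL and NOTCH3 are not among those probes. That log2 table served as an alternative.

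Control spots and 111 to 216 outlier-flagged spots per array were left out. Signals were divided by the 75th percentile of the array, floored and log2 transformed. RefSeq accessions named 31104 probes, LNCipedia names 10719, and 16378 had no gene name. A probe was tested when all arrays of any 1 group of the fit showed it well above background, and its brightest such probe represented a gene. Tests used limma 3.58.1 (R 4.3.3) over the 12 arrays of a line, or all 24 for comparisons between lines, with Benjamini-Hochberg adjustment over all genes. The fits were tested on simulated data. The members and lists were chosen with earlier results of these data known. Named genes were the 10 members, other pathway genes past 0.05 with a fold above 1.5 (at most 5 per comparison), known TGFβ targets and the 3 genes most like JAG1, HES1 and NOTCH3. Some genes that the rule names are not reported here. Alternatives were background correction, scaling, floor, filter, probe choice, block, samples and test. The methods' two-sample test, or t-test, was run as a plain t-test for each gene. It left out the random variance model of the methods, so its calls are not those of the authors' test. The background correction by normexp used the median spot signal, offset 50. The small number of arrays limits the precision.

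Same-numbered cultures shared a slide, and their deviations from group means correlated above 0.1 in all 3 pairs for TGFβ against control in PLC/PRF/5 (0.17 to 0.30) and in SNU-449 (0.13 to 0.22) and for both agents against TGFβ in SNU-449 (0.10 to 0.27), but not in the other comparisons.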

Additional observations from a re-analysis of the deposited data

Results flagged for a closer look

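The TGFβ effect on 2 members differed between the lines by a test of the difference itself. For JAG1 the rise was greater in SNU-449 by 2.51 on the log2 scale, and this kept its call in all 15 alternatives, with values from 2.27 to 2.83. For HES1 the difference of -0.90 rests on SNU-449 arrays at the floor and did not keep its sign, as described below.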

How the results depend on the processing

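Of 22 differences of members that were called, 12 kept their call and direction in every alternative that tested them, among them JAG1 and HEY1 with TGFβ and with both agents against TGFβ, and NOTCH2, NOTCH3, NRARP, HEYL and HEY1 between the untreated lines. The rule of fold above 2 and P below 0.001 is not among these alternatives. HEY1 did not meet that rule for both agents against TGFβ in PLC/PRF/5. The HES1 difference in the TGFβ effect reversed to 1.87 with the authors' table and to 0.013 with the floor lowered by 1 log2 unit, and JAG2 between lines reversed to -0.87 with the mean of all its probes. The HES1 reversals come with SNU-449 levels at the floor. The JAG2 mean takes in the further probe, which differed by -2.87, beside 0.08 and 0.19 for the other JAG2 probes. For the other changes the cause was not tested.

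Counts of members called changed as follows, smaller changes being left out except where a call was gained. Between the untreated lines, 8 became 9 with the mean of all probes (JAG2), 5 with fold above 2 and P below 0.001, 5 with the methods' t-test and 4 with only probes above background on every array, and 6 to 7 without 1 replicate. For the difference in the TGFβ effect, 2 became 3 with the fit over the compared groups only (HEY1) and 1 with the authors' table, the fold and P rule, the lower floor, normexp, only probes above background on every array and median scaling. For TGFβ in PLC/PRF/5, 2 became 1 with the authors' table, the fold and P rule, normexp, only probes above background on every array, and 1 to 2 without 1 replicate, the loss being HES1 without replicate 3 (adjusted p = 0.054 by limma). For TGFβ in SNU-449, 2 became 1 with only probes above background on every array, where HEY1 was not tested, and 3 (HEYL) with no scaling, quantile normalization and the fit over all 24 arrays. For both agents against TGFβ in PLC/PRF/5, 1 became 0 with the fold and P rule, 2 with the mean of all probes, 2 with quantile normalization and 3 with the methods' t-test. In SNU-449, 4 became 5 with the authors' table (JAG2) and 2 with the fold and P rule and with only probes above background on every array, and 2 to 3 without 1 replicate. For both agents against galunisertib in PLC/PRF/5, 2 became 1 with the authors' table, the fit over all 24 arrays, the fold and P rule, no filter on dim probes, no scaling, normexp, only probes above background on every array, the percentile over probes above background on all arrays and median scaling, 0 with the methods' t-test, and 0 to 1 without 1 replicate. With normexp HES1 and HEYL were both lost, and the 1 member called was NOTCH2, at 0.77 (limma, adjusted p = 0.037). In SNU-449, 1 became 0 with the fit over all 24 arrays, the fold and P rule, the mean of all probes, the methods' t-test, no scaling, the percentile over probes above background on all arrays, quantile normalization and median scaling, and without any 1 replicate. For galunisertib alone, 0 became 1 in SNU-449 with the authors' table and the lower floor (HEY1) and normexp (NOTCH1), and 1 (HEY1) for the difference between lines with the authors' table and the lower floor.

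With the replicate as a block, the counts were 8 between the lines, 2 for TGFβ in each line and 3 for both agents against TGFβ in SNU-449. For both agents against galunisertib they became 1 in PLC/PRF/5 and 0 in SNU-449 (HEYL, adjusted p = 0.075, and JAG2, adjusted p = 0.072, by limma). The block changed no other call of a member than these and HEYL for both agents against TGFβ in SNU-449. Same-numbered cultures shared a slide in the comparison with galunisertib as well, though their deviations did not correlate above 0.1 in all 3 pairs. At the methods' threshold of fold and P, the methods' t-test called 1 member for TGFβ in PLC/PRF/5, 2 in SNU-449 and 5 between the lines.

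Median scaling moved the median of all genes to -0.28 between the lines and to 0.23 for both agents against TGFβ in PLC/PRF/5, and no scaling moved it to 0.21 for TGFβ in PLC/PRF/5 and -0.17 for both agents against TGFβ in SNU-449. Higher and lower calls over all genes went from 6073 and 6194 to 3634 and 7376 between the lines with median scaling, from 1060 and 1203 to 469 and 35 for TGFβ in PLC/PRF/5 and from 906 and 757 to 855 and 281 in SNU-449 without scaling. Signal near background limits HES1, HEYL and HEY1 in SNU-449.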
